A study of Caenorhabditis elegans with 26 samples.

Results

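The genes described here are the bath, math and btb genes of Caenorhabditis elegans, which are named for the BTB and MATH domains of their predicted proteins. All 90 genes whose WBcel235 name begins with bath-, math- or btb- were taken from a table of 22271 genes, and they comprise 36 bath, 37 math and 17 btb genes. The genes given statistics were selected on their reads, as the 43 with 20 or more over 6 libraries, of which 25 were bath, 8 math and 10 btb genes. That selection used the summed reads of all 3 groups. A gene with reads in only 1 group therefore had to differ to enter at all, and the counts below describe these genes and support no claim about the family.

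Small RNAs were cloned from whole worms of 3 genotypes with 2 libraries each, namely wild type (WT), mut-16(DE6R), also called the single mutant here, and the double mutant rde-3 mut-16(DE6R), whose mut-16 allele has the same name. The labels do not say what the DE6R change is, and they give neither the age of the worms nor the cultures behind each library, so the spread that p-values rest on is that between libraries and may be technical. The libraries held 515300 to 1571194 counted reads. The values are small-RNA reads that map to a gene and not its mRNA level, so the reads of the mutated genes, 7, 7 and 15 on mut-16 and 1, 7 and 2 on rde-3 (mut-2) in WT, the single and the double mutant, check no genotype.

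BTB domains bind cullin 3, and proteins that join a BTB domain to a MATH domain act as substrate adaptors of CUL-3 ubiquitin ligases. The best studied of them in the worm is MEL-26, which targets the microtubule severing protein MEI-1 for degradation after meiosis. The bath and math genes form large tandem groups in the worm genome, and the function of most of them is not known. The nucleotidyltransferase RDE-3 (MUT-2) puts untemplated poly(UG) tails on RNAs targeted for silencing. MUT-16 is the scaffold of mutator foci, the germ granule compartments where RNA-dependent RNA polymerases copy targeted RNAs into 22G-RNAs, the antisense small RNAs loaded by worm-specific Argonautes.

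In WT the bath genes carried nearly all of the reads of the family. The 90 genes held 0.881% ± 0.0273 of all counted reads in WT, 0.784% ± 0.00375 in the single mutant and 0.143% ± 0.000283 in the double mutant (mean ± SD, n = 2 libraries each). The locus F56H9.8 held a large share of the reads, and outside it these shares were 1.78%, 1.25% and 0.322%. The 3 groups did not overlap in either share. Because a share depends on all other reads, a lower share does not give the number of small RNAs per worm.

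By name, the bath genes held 1.70% of reads outside F56H9.8 in WT, 1.17% in the single mutant and 0.28% in the double mutant. The math genes held 0.0702%, 0.0673% and 0.0142% in the same order, so that their summed share fell below the other 2 genotypes in the double mutant. The btb genes held 0.0181%, 0.0183% and 0.0278%. The btb share was thus highest in the genotype in which the bath and math shares were lowest, but in CPM scaled with TMM factors the btb genes summed to 155, 86.4 and 99.5 and were highest in WT.

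**Figure D1:**
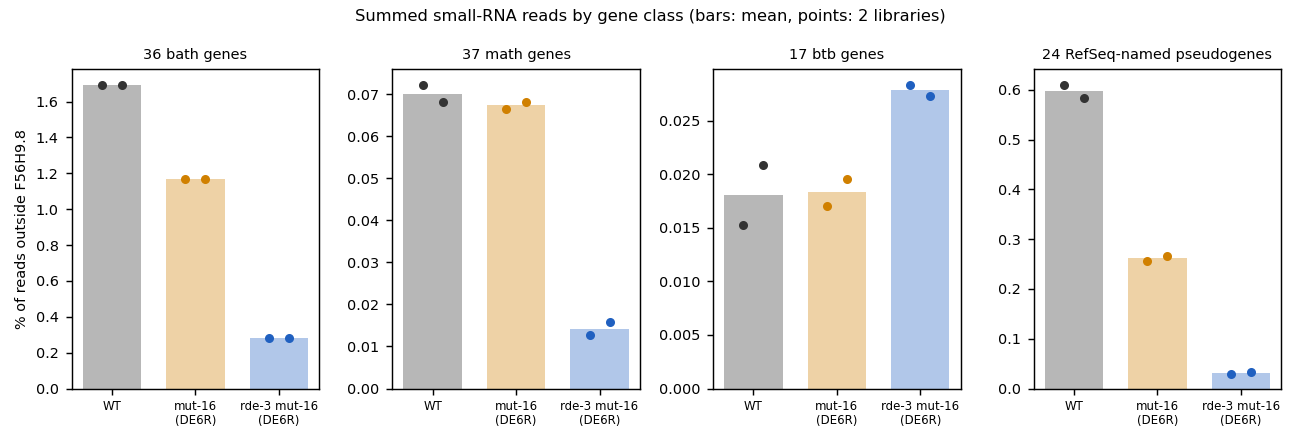
Share of reads outside F56H9.8 that mapped to bath, math and btb genes, and to 24 RefSeq-named pseudogenes of the family, by genotype. Bars are means, points are the 2 libraries of each genotype, and each panel has its own axis from 0. The bath share went from 1.70% in WT to 0.28% in rde-3 mut-16(DE6R), while the btb share was 0.0181% and 0.0278%.

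Reads were concentrated in few genes. Of 40926 reads on the family, bath-45 alone held 51.5% and the 6 highest genes held 81.7%, against a median of 18.5 reads over all 90 genes. There were 39 genes with 1 to 19 reads and 8 with 0 reads in every library. Among these 8 were bath-37 and math-33, a gene whose product belongs to the USP7 deubiquitinases rather than to the ligase adaptors. Just inside the threshold were btb-4 with 24 reads and btb-17 with 21, and just outside it were math-42 and math-46 with 19 each and math-7 and btb-8 with 18 each. The 47 genes under 20 reads together held 132 reads in WT, 85 in the single mutant and 21 in the double mutant.

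The expression filter of edgeR kept 35 of the 43 genes, namely 23 bath, 7 math and 5 btb genes, which held 98.8% of the family's reads. The 8 genes with 20 or more reads that were not tested were btb-2, math-39, btb-10, bath-9, btb-7, bath-39, btb-4 and btb-17. Of these, btb-10 had 25 reads in WT, 6 in the single mutant and 0 in the double mutant. For btb-17 the numbers were 2, 19 and 0 reads. All 3 comparisons below come from 1 fit over 5312 genes, and they share libraries pairwise, so they are given side by side and not as support for one another.

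In mut-16(DE6R), scaled with TMM factors, most of the bath genes tested had fewer small-RNA reads than in WT. The 5 most abundant fell by 1.01 to 1.70 on the log2 scale, while math-1 and math-31 did not pass the test. With p-values of edgeR's quasi-likelihood F test adjusted by Benjamini-Hochberg over all genes, 25 of the 35 genes tested were lower and 2 were higher, against a background of 36.6% lower and 22.1% higher over all genes tested. The median log2 fold change was −1.30 for the family and −0.09 for all genes. By name, 18 bath genes were lower and 2 higher of 23, 5 math genes were lower of 7, and 2 btb genes were lower of 5. Of the 35 genes, 8 were lower by 4-fold or more, as were 16.0% of all genes tested.

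This split depended on the scaling of the libraries, whose TMM factors (edgeR's trimmed mean of M values) were 0.582 and 0.593 in WT and 1.26 to 1.36 in the mutants. Scaled to library totals, 13 genes were lower and 10 higher, and the family median was −0.11 while the median of all genes was 1.09. Relative to that median the family stood at −1.20, beside −1.21 with TMM factors. A change of scaling shifts all genes nearly alike, so this difference could hardly move and does not check the scaling.

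In rde-3 mut-16(DE6R) the losses were much larger. They took in math genes that, scaled with TMM factors, the single mutant had left near the WT level. Again 25 of 35 genes were lower than in WT, with 4 higher, against a background of 37.9% lower and 26.8% higher. The median log2 fold change was −3.94, or −3.89 with the 2 genes at 0 reads set to their bounds, beside −0.03 for all genes. Of the 35, 23 were lower by 4-fold or more, as were 29.2% of all genes tested. By name, 17 bath genes were lower and 3 higher, 6 of 7 math genes were lower, and 2 btb genes were lower and 1 higher.

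Set directly against mut-16(DE6R), the double mutant had 20 of 35 genes lower and 3 higher, with a background of 26.2% lower and 16.5% higher. The family median was −1.36, or −1.59 to −2.26 when 1 library was left out (−2.26 without WT library 1), and that of all genes was −0.02. Of the 35, 17 were lower by 4-fold or more, as were 18.5% of all genes tested. The math genes had the lowest median of the 3 names at −4.88, with 6 of 7 lower, compared with −1.30 for bath and −0.85 for btb genes. Scaled to totals without F56H9.8, 17 genes were lower and 9 higher. The test of this contrast is the test of whether the double mutant differed from the single mutant, and 12 genes did not pass it.

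**Figure D2:**
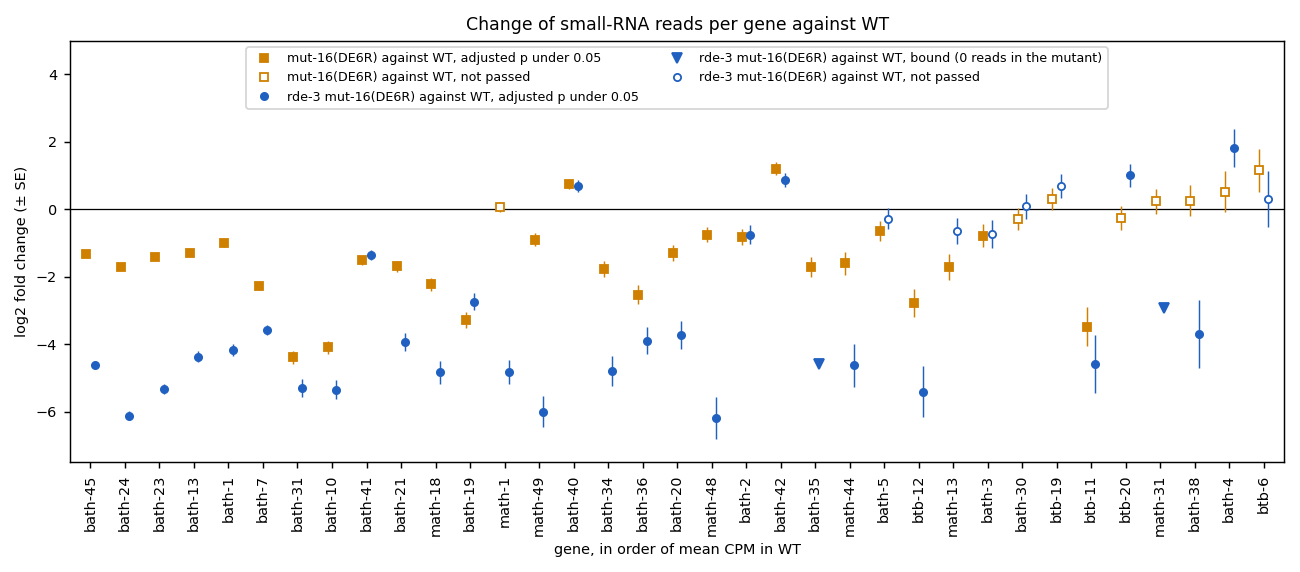
Log2 fold change of small-RNA reads against WT for the 35 genes tested, in order of their mean level in WT, with bars of 1 SE. Filled symbols passed an adjusted p of 0.05, and triangles are bounds for bath-35 and math-31, which had 0 reads in rde-3 mut-16(DE6R). The 5 most abundant genes lie between −1.01 and −1.70 in mut-16(DE6R) and between −4.18 and −6.12 in rde-3 mut-16(DE6R), and bath-40 and bath-42 lie above 0 in both.

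The most abundant target was bath-45 (F29C12.5, chromosome II, 13123020 to 13125189, plus strand), a BTB and MATH domain gene that lies far from the tandem group described below. Its level was 7768 and 7979 CPM (counts scaled to a fixed library size) in the WT libraries, 3143 and 3182 in the single mutant, and 312.9 and 331.9 in the double mutant. The genotypes did not overlap, and WT was 2.49 times the single mutant, which was 9.82 times the double mutant. The log2 fold change against WT was −1.31 (SE 0.061) in the single and −4.61 (SE 0.082) in the double mutant, and both passed edgeR's test. Scaled to library totals, the single mutant was at −0.12 and did not pass (edgeR adjusted p = 0.0785). Without bath-45 the family held 0.426%, 0.365% and 0.103% of all counted reads in WT, mut-16(DE6R) and the double mutant.

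Second came bath-24 (B0047.3, chromosome II, 2044619 to 2045605, minus strand), with 2371 and 2321 CPM in WT, 694.5 and 738.3 in the single mutant, and 39.11 and 28.80 in the double mutant. Its log2 fold changes were −1.70 (SE 0.070) and −6.12 (SE 0.129). Per kilobase of transcript, which allows levels of different genes to be compared, WT held 4314 CPM on bath-45, 2820 on bath-24, 1113 on bath-23, 639.7 on bath-13 and 499.9 on bath-1.

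The next genes behaved alike in order of genotype. For bath-23 the WT libraries had 893.2 and 999 CPM, the single mutant libraries 366.6 and 351.2, and the double mutant libraries 25.03 and 21.95. At bath-1 the values were 481.5 and 525.4, then 262.5 and 243.4, then 28.16 and 27.43 CPM. Each genotype was separate from the others at both genes. Against WT, the log2 fold changes of bath-23 were −1.41 in the single and −5.33 in the double mutant, those of bath-13 −1.28 and −4.38, and those of bath-1 −1.01 and −4.18. In the single mutant, bath-13 did not pass under library totals (−0.091), and bath-1 stood at 0.18 under library totals and did not pass at −0.16 under totals without F56H9.8.

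A different pattern held at bath-7, bath-31, bath-10 and bath-19. With TMM factors and on the log2 scale, the step from WT to the single mutant was the larger one there. WT held 274.9 and 257 CPM of bath-31, the single mutant held 18.15 and 10.16, and the double mutant 4.69 and 8.23. The fall in mut-16(DE6R) was −4.39 on the log2 scale (edgeR adjusted p = 1.47e-110), and the further −0.91 in the double mutant did not pass (edgeR adjusted p = 0.135). At bath-10 the WT libraries had 255.2 and 235.6 CPM, against 14.52 and 14.03 in the single mutant and 3.13 and 8.23 in the double mutant. Both mutants lay far below WT at these 2 genes. The double mutant was lower than the single at bath-10, with a log2 difference of −1.26 (edgeR adjusted p = 0.0331), which did not pass without either single mutant library (−1.26 and −1.29) or without double mutant library 1 (−0.76).

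The level of bath-19 was 124.6 and 139.8 CPM in WT, 18.15 and 11.61 in the single mutant, and 20.34 and 19.20 in the double mutant. It fell in both mutants, and the double mutant against the single mutant gave 0.54 (SE 0.377, edgeR adjusted p = 0.251). For bath-7 the values were 516.5 and 485 CPM in WT, 87.11 and 109.8 in the single mutant and 42.24 and 41.15 in the double mutant. With TMM factors, the larger step on the log2 scale was thus the first one. That order depends on the scaling at bath-7, because library totals shrink the first step. On chromosome III, bath-41 was at 211.1 and 230.5 CPM in WT, 71.38 and 80.31 in the single mutant and 93.87 and 79.55 in the double mutant, with log2 fold changes of −1.51 and −1.36. The double mutant against WT did not pass for bath-41 under library totals (−0.26) or totals without F56H9.8 (−0.10). Its end overlaps a gene on the opposite strand, F37A4.3, by 89 bases, and reads of the 2 genes cannot be told apart there.

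The reverse pattern, little or no loss in the single mutant and near loss of all reads with rde-3 mutated as well, was found at math-1 and math-31. With TMM factors, 5 of the 7 math genes tested were lower in mut-16(DE6R), at a median of −0.90 for all 7. Math-1 (B0047.4, chromosome II, 2046053 to 2046656, minus strand) had 127.6 and 127.2 CPM in WT, 134.3 and 132.6 in the single mutant, and 6.26 and 2.74 in the double mutant. Scaled with TMM factors, the first 2 genotypes lay close together, with a log2 difference of 0.06 (SE 0.146, edgeR adjusted p = 0.728). Both lay far above the double mutant. That closeness depended on the scaling. Of the 7 math genes tested, 2 were higher and 1 lower in mut-16(DE6R) than in WT under library totals. Under upper-quartile factors 1 was higher and 4 were lower. The double mutant was lower than the single mutant, with a log2 fold change of −4.88 (SE 0.329, edgeR adjusted p = 4.28e-48).

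Math-31 had 24 reads in WT, 56 in the single mutant and 0 in the double mutant. Taking a floor of 3 counts over the group, it was at least 7.54-fold lower in the double mutant than in WT and at least 8.83-fold lower than in mut-16(DE6R). Math-48 went from 91 reads in WT and 108 in the single mutant to 1 read, a ratio of 85.7 to WT (95% counting interval 15 to 3420). Math-49 went from 148 and 159 reads to 2 reads, a ratio of 69.7 (interval 19 to 581). These last 2 genes passed as lower in mut-16(DE6R) too, at log2 fold changes of −0.75 and −0.90, but stood above WT there when scaled to library totals (0.435 and 0.285). Math-48 did not pass there by DESeq2 (−0.80) either. Intervals and floors cover counting error only.

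Among bath genes, bath-38 followed the same order with 16 reads in WT, 38 in the single mutant and 1 in the double mutant. Its ratio of WT to the double mutant was 15.1, with a counting interval of 2.34 to 632. On chromosome I, bath-35 had 76 reads in WT, 46 in the single mutant and 0 in the double mutant, which was at least 23.9-fold lower than WT and at least 7.25-fold lower than the single mutant. The single mutant passed as lower than WT at bath-35 (−1.71), but not under library totals (−0.53).

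Further genes fell in 2 steps from lower WT levels. Math-18 was at 145.8 and 153.7 CPM in WT, 36.3 and 30.0 in the single and 3.13 and 6.86 in the double mutant, and bath-34 was at 91.14 and 79.37, 24.2 and 25.16, and 4.69 and 1.37. The genotypes were apart at both genes, and the log2 fold changes against WT were −2.23 and −4.84 for math-18 and −1.76 and −4.80 for bath-34. Math-44 had 57 reads in WT, 37 in the single mutant and 2 in the double mutant, a ratio of WT to the double mutant of 26.9 (counting interval 7.1 to 227). On chromosome V, bath-36 was at 82.03 and 74.33, 8.47 and 15.48, and 9.39 and 1.37 CPM, so that both mutants lay below WT but overlapped with each other.

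**Figure D3:**
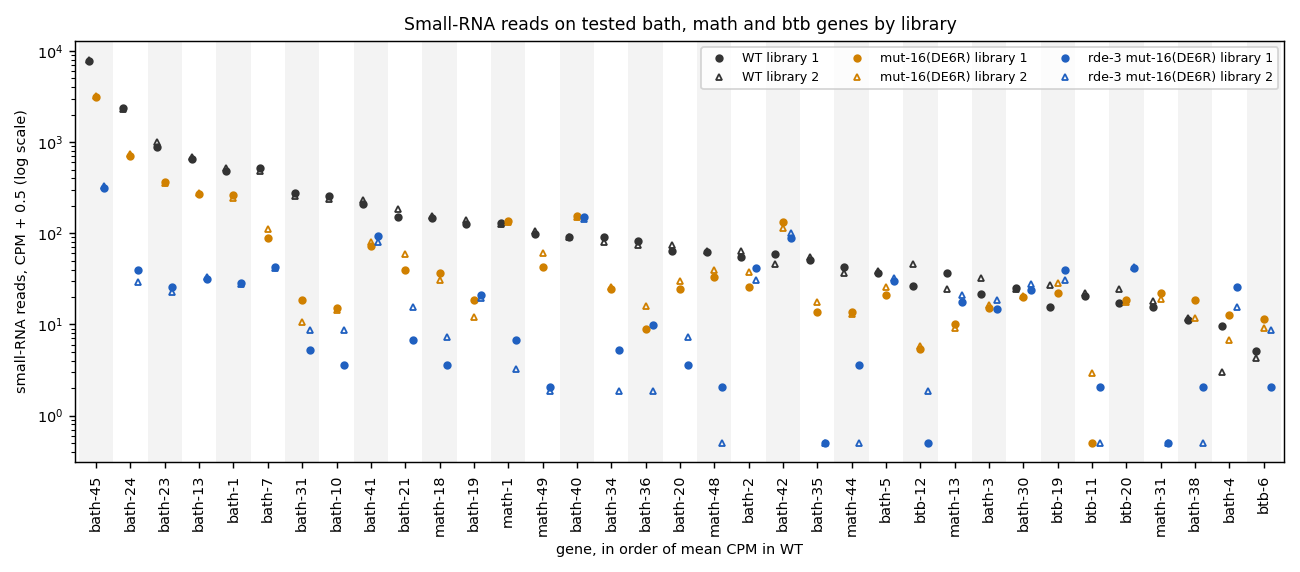
Small-RNA level of the 35 genes tested in each of the 6 libraries, as CPM + 0.5 on a log scale. The 2 libraries of a genotype lie close together at the abundant genes. Bath-45 and bath-24 decline from WT through mut-16(DE6R) to rde-3 mut-16(DE6R), math-1 is low only in the last, and bath-40 and bath-42 are higher in both mutants.

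Few genes gained reads. On chromosome I, bath-40 had 89.62 and 90.71 CPM in WT, 152.4 and 150 in the single mutant, and 150.2 and 142.6 in the double mutant. WT lay below every mutant library, with log2 fold changes of 0.74 (edgeR adjusted p = 3.79e-06) and 0.70 (edgeR adjusted p = 0.000123). On chromosome III, bath-42 had 59.24 and 45.35 CPM in WT, 130.7 and 113.7 in the single mutant, and 87.62 and 100.1 in the double mutant, again without overlap with WT. It rose by 1.21 and 0.86 on the log2 scale, and its difference between the mutants of −0.34 did not pass (edgeR adjusted p = 0.0769).

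The remaining gains were small in reads. Btb-20 was at 16.71 and 23.94 CPM in WT, 18.15 and 16.93 in the single mutant, and 40.68 and 42.52 in the double mutant, which rose by 1.01 against WT (edgeR adjusted p = 0.00599). Without WT library 1 the rise was 0.76 and did not pass, nor did it by DESeq2. Bath-4 was at 9.11 and 2.52, 12.1 and 6.29, and 25.03 and 15.09 CPM, a log2 rise of 1.82 in the double mutant (edgeR adjusted p = 0.00256) that did not pass without WT library 2 (1.05) or without double mutant library 1 (1.45), nor by DESeq2 (1.77). Math-13 had 36.46 and 23.94 CPM in WT, 9.68 and 8.71 in the single mutant and 17.21 and 20.57 in the double mutant, and its fall in the single mutant of −1.71 passed while the double mutant against WT (−0.64) did not. Under library totals that fall was −0.53 and did not pass. These 3 genes, btb-20, bath-4 and math-13, were the ones higher in the double than in the single mutant. DESeq2 called none of the 3, and math-13 (1.07) also did not pass when any library except WT library 2 was left out.

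The btb genes as a group were at low levels. Btb-12 had 53 reads in WT, 15 in the single mutant and 1 in the double mutant, and btb-11 had 30, 5 and 1. Both fell in mut-16(DE6R), with log2 fold changes of −2.78 for btb-12 and −3.48 for btb-11. Btb-19 and btb-6 passed no comparison. Among the bath genes, bath-30 also passed none, at 24.3 and 23.94 CPM in WT, 19.36 and 19.84 in the single mutant and 23.47 and 27.43 in the double mutant.

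Most of the family lies in 1 stretch of 1 chromosome. Of the 90 genes, 77 (85.6%) are on chromosome II, 5 on I, 4 on III, 1 on IV, 3 on V and none on X. The left arm of chromosome II between 1 and 4 Mb (WBcel235) holds 70 of them, and 54 lie between 1.5 and 2.2 Mb. Of the 25 tested in the longer stretch, 20 were lower in mut-16(DE6R) and none higher, and in the double mutant 19 were lower and 1 higher. Of the 10 tested elsewhere, 5 were lower and 2 higher, and then 6 lower and 3 higher. Over all genes tested, 36.6% were lower and 22.1% higher in mut-16(DE6R), and 37.9% lower and 26.8% higher in the double mutant. These counts rest on TMM factors, and were not made by position under other scalings.

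Other genes of the stretch moved in the same direction. Between 1 and 4 Mb, 143 other genes were tested and 84 of them (58.7%) were lower in the single mutant and 89 (62.2%) in the double mutant. In the rest of chromosome II, 801 were tested and 29.1% and 31.3% were lower. Between 1.5 and 2.2 Mb, 27 of 36 other genes were lower in mut-16(DE6R) with a median of −2.04, and 32 of 36 in the double mutant with a median of −4.60. Losses were thus also found among the neighbours of the bath, math and btb genes, and no test of the difference between them was made.

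**Figure D4:**
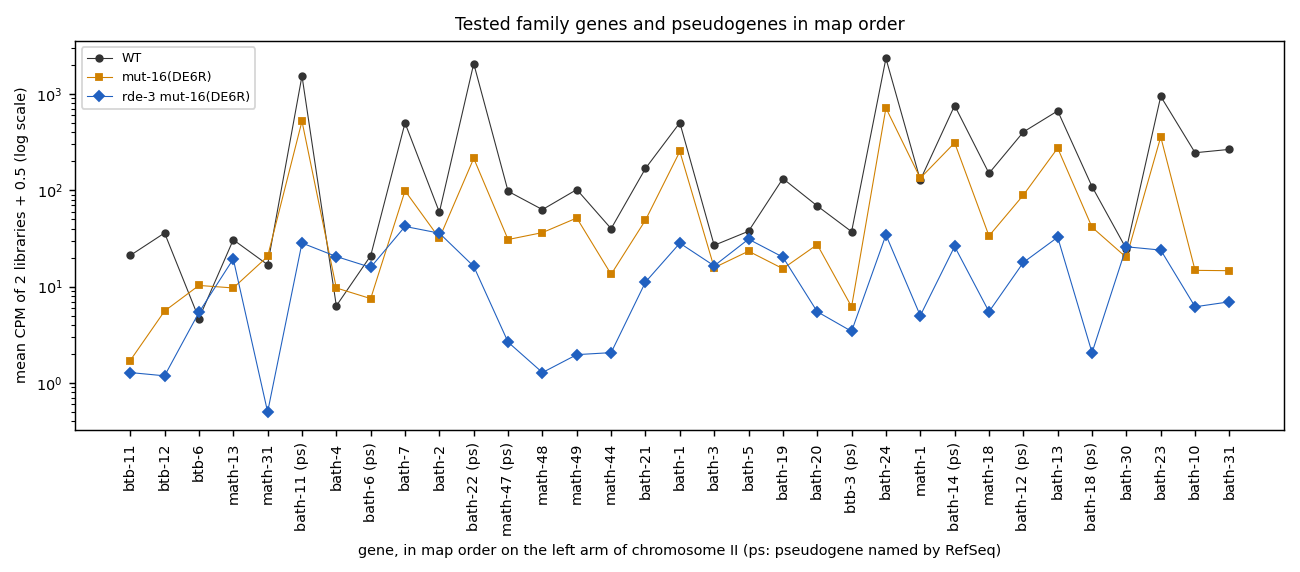
Mean level of 2 libraries (CPM + 0.5, log scale) in each genotype for the genes tested on the left arm of chromosome II and the RefSeq-named pseudogenes (ps) among them, in map order and not to scale of distance. Neighbouring copies differ, as where math-1 in mut-16(DE6R) meets its WT level beside bath-24, which does not.

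Within the stretch, near neighbours differed from each other. A block of 8.9 kb (chromosome II, 2040276 to 2049175) holds bath-20, bath-24, math-1 and the pseudogenes btb-3 and bath-14. There, math-1 did not pass in the single mutant (0.06) while bath-24 and bath-20 fell, at log2 fold changes of −1.70 and −1.30, and all 3 fell in the double mutant, at −4.82 for math-1, −6.12 for bath-24 and −3.72 for bath-20. The fall of bath-20 in the single mutant did not pass under library totals (−0.11) or totals without F56H9.8 (−0.45). In the adjoining block of 24.5 kb (2014902 to 2039388), bath-1 had 28.16 and 27.43 CPM left in the double mutant of 481.5 and 525.4 in WT. In the same block bath-5 was at 36.46 and 37.8 CPM in WT and 29.73 and 31.55 in the double mutant, a log2 difference of −0.28 (edgeR adjusted p = 0.451). Bath-3 of this block gave −0.73 (edgeR adjusted p = 0.102). In another block of 10.3 kb (1912450 to 1922765), bath-7 fell by 3.58 and bath-4 rose by 1.82 in the double mutant. Bath-2 fell by 0.75 there, but stood at 0.35 under library totals and did not pass without WT library 2 (−0.69), without double mutant library 2 (−0.55) or by DESeq2 (−0.79).

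Whether reads that match several tandem copies were shared or assigned to 1 gene is not given in the sources used here, and the values of tandem copies are uncertain to that extent. Of the 35 genes tested, 4 are overlapped by another gene. One of them, bath-21, is overlapped by the pseudogenes F59H6.2 and F59H6.3 on the opposite strand and by cya-2 on its own. It had 151.9 and 185.2 CPM in WT, 38.72 and 58.54 in the single mutant, and 6.26 and 15.09 in the double mutant.

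RefSeq gives bath, math or btb names to 24 pseudogenes that are not among the 90 genes, 21 of them in the same stretch of chromosome II. All 9 that were tested were lower in mut-16(DE6R) (median −1.72), and 8 of them were lower in the double mutant (median −4.88). Over all genes tested, 36.6% and 37.9% were lower. In mut-16(DE6R) under library totals, 6 of the 9 were lower (median −0.53). Totals without F56H9.8 and DESeq2 each gave 8 lower there. Bath-22 was the highest, with 2037 and 2106 CPM in WT, 216.6 and 212.4 in the single mutant, and 10.95 and 20.57 in the double mutant. Bath-6 was the 1 that did not pass in the double mutant, at 18.23 and 22.68, 4.84 and 9.19, and 15.65 and 15.09 CPM. RefSeq also lists bath-23 as a pseudogene, which the WBcel235 annotation calls protein-coding.

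The F-box genes, the other large adaptor family of the worm, whose products recruit substrates to CUL-1 ligases, were set beside them. Of 311 fbxa, fbxb and fbxc genes, 67 were tested, and 53 were lower and 4 higher in mut-16(DE6R) with a median of −2.23. In the double mutant 57 were lower and 6 higher, with a median of −4.95. Over all genes tested, 36.6% and 37.9% were lower and 22.1% and 26.8% higher in the 2 mutants. Under library totals, 43 F-box genes were lower and 14 higher in mut-16(DE6R), with a median of −1.04. In the double mutant 52 were then lower and 10 higher, with a median of −3.86.

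Few genes were lower on the CUL-3 ligase list, which also holds genes such as mei-1, mei-2 and ubq-2. Of 23 genes on this list, 11 were tested, and 4 were higher and 2 lower in mut-16(DE6R), and 5 higher and 1 lower in the double mutant (medians 0.21 and 0.52). Over all genes tested, 22.1% were higher and 36.6% lower in mut-16(DE6R), and 26.8% higher and 37.9% lower in the double mutant. Under library totals 9 genes of the list were higher and none lower in each mutant. DESeq2 called none in mut-16(DE6R), and 3 higher and none lower in the double mutant. The cullin gene cul-3 had 4 reads and the adaptor gene mel-26 had 3 over all libraries, and neither was tested. Csn-3, a subunit of the COP9 signalosome that removes NEDD8 from cullins, rose by 0.65 and 1.49. Mei-2, the partner of MEI-1 in katanin, rose in the double mutant by 0.94. In mut-16(DE6R), csn-3 did not pass without WT library 2 (0.35) or by DESeq2.

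Ned-8, the ubiquitin-like modifier of cullins, fell by 0.90 and 0.81, but stood at 0.29 and 0.292 when scaled to library totals. Cand-1, which exchanges cullin adaptors, fell by 0.43 in mut-16(DE6R) and stood at 0.758 under library totals. Neither gene passed in mut-16(DE6R) without library 2 of that mutant (−0.57 and −0.38). Ned-8 also did not pass there without WT library 1 (−0.67), nor in the double mutant without WT library 1 (−0.60) or double mutant library 1 (−0.42). Of 7 other BTB domain genes, 4 were tested, and 1 was higher and 1 lower in mut-16(DE6R), and 2 lower in the double mutant. Kel-20, a kelch-repeat gene, was at 88.1 and 110.9 CPM in WT, 151.2 and 142.7 in the single and 108 and 118 in the double mutant, and rose in the single mutant by 0.54 (edgeR adjusted p = 0.000878). Its rise did not pass without WT library 1 (0.37) or by DESeq2. Kel-1, also of the kelch type, fell by 1.04 and 4.73, though its change in mut-16(DE6R) was 0.154 under library totals. Eor-1, a BTB zinc finger transcription factor gene, fell in the double mutant by 0.79, and was at 0.315 there under library totals. It did not pass without WT library 2 (−0.74) or without either double mutant library (−0.70 and −0.87).

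Reads on genes of other tissues moved between the genotypes as well. The 6 vitellogenin genes of the intestine summed to 51.65 to 52.91 CPM in WT, 248 to 256.4 in the single mutant and 486.9 to 585.1 in the double mutant, and 5 of 5 tested rose in both. The 4 body wall muscle genes summed to 27.34 to 30.24, 61.71 to 62.89 and 192 to 197.1 CPM, and 2 and then 3 of 3 tested rose. The 5 germline genes summed to 607.2 to 630.4, 641.3 to 674.4 and 963.8 to 965.6 CPM, with 1 read in all on pgl-1. Of the 4 germline genes tested, 2 were higher and 1 lower in mut-16(DE6R), and 3 higher and 1 lower in the double mutant. The lower gene was glp-1 in both, at log2 fold changes of −0.56 and −0.69 with TMM factors. As a share of all counted reads, glp-1 was higher in both mutants than in WT. In library 1 it had 91 of 1149904 reads in WT, 83 of 620047 in the single and 56 of 515300 in the double mutant. The germline genes together held 0.0358%, 0.0871% and 0.12% of all counted reads. Over all genes tested, 22.1% and 26.8% were higher and 36.6% and 37.9% lower. The 5 sperm genes had at most 4 reads in a library, with none tested and msp-3, msp-10 and msp-31 at 0. Of the intestine list, vit-6 was at 0 in WT. These are small-RNA reads and check no tissue, and their part in the results above was not tested.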

How the data were processed

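The authors deposited a table of raw read counts, 1 row for each transcript, from which 6 libraries were used here. The tools named are Bowtie 1.3.1 and cutadapt 4.9, with the build WBcel235, per the submitters' processing notes. Per the labels' protocols, Trizol-extracted small RNAs were treated with PIR-1, a phosphatase that makes triphosphorylated small RNAs ligatable, then ligated, amplified and size-selected. Not given in the sources used here: how reads were counted, whether by strand, and what became of multi-mapping reads. The 20 columns of tethered strains were not used.

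Transcripts were summed to 22271 genes. Of the identifiers, 379 with 114241 reads matched no annotated name and were kept under their own. Counts were tested with edgeR 4.0.16 (R 4.3.3): a robust quasi-likelihood fit with TMM factors, 1 coefficient per group, genes passing a minimum count of 10 and total of 15, and Benjamini-Hochberg adjustment over 5312 genes, called at 0.05. These held 98.3% of reads. With 3 residual degrees of freedom the biological coefficient of variation was 0.0401. The SE is the log2 fold change divided by the square root of F, so it restates the p-value. CPM divides counts by library size times TMM factor.

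Replicates differed beyond sampling noise in each group (chi-square p = 1.94e-44, 8.5e-09 and 1.4e-07 over genes). In simulated counts of rde-3 mut-16(DE6R) against WT over 5312 genes, 75 of 100 genes changed 2-fold and 96 of 100 changed 4-fold were recovered. The changed genes were drawn only from those with a mean above 20 CPM, and all genes were given the same dispersion. Recovery at lower levels, where several of the genes tested here lie, was not measured. An exact permutation test of 2 against 2 libraries cannot go below p = 0.333, so none was used for single values. Named genes were the 10 with the highest mean CPM, up to 6 that rose and 6 that fell most per comparison, math-33, those next to the 20-read threshold, and up to 3 per direction of the CUL-3 and other BTB lists, of which 1 is not reported here. All other genes described lie outside this rule and were chosen after their values were seen. Among them are genes of the map blocks, genes that passed no comparison and pseudogenes. Bath-34, bath-38, math-18, math-44 and btb-10 are also among them. The genes and lists were chosen with earlier results of these data known. Alternatives were other scalings, DESeq2 1.42.0, no filter, a replicate block, 2 groups only, each library left out and a 50-read threshold.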

Additional observations from a re-analysis of the deposited data

How the results depend on the processing

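The scaling of the libraries changed the counts of genes and the medians. In mut-16(DE6R) against WT, genes higher numbered 2 under TMM factors, 10 under library totals, 8 under such totals less F56H9.8 and 5 under upper-quartile factors, and genes lower were 25 and, with library totals, 13. The median of −1.30 was −0.11, −0.45 and −0.90 under these scalings and −0.84 with no filter. For rde-3 mut-16(DE6R) against WT, higher genes were 4, but 7 with library totals, 7 without F56H9.8 and 2 by DESeq2, and the median of −3.94 was −2.84, −2.69, −3.40 (upper quartile) and −3.66 (no filter). Leaving out 1 library at a time gave medians of −4.25 to −3.61. For rde-3 mut-16(DE6R) against mut-16(DE6R), higher genes were 3, but 9 without F56H9.8, 0 by DESeq2 and 1 with no filter, and 1 to 3 without single libraries. Its median of −1.36 was −0.97 without F56H9.8, −1.67 with no filter, −1.81 with the 2 groups only and −2.24 for genes with 50 or more reads, and −2.26 to −1.59 without single libraries. The cause was not tested.

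Replicate numbers did not pair the libraries (correlations of deviations −0.004, −0.017 and −0.026). With the replicate number as a block, counts were the same in both comparisons with WT, and between the mutants 1 gene was higher and 19 lower.

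The summed level in WT, mut-16(DE6R) and the double mutant was 1.78%, 1.25% and 0.322% outside F56H9.8. As a percent of all counted reads (0.881%, 0.784% and 0.143%), it was 0.426%, 0.365% and 0.103% without bath-45, an alternative chosen after seeing the data. On that same basis, genes of 20 or more reads only gave 0.78% in mut-16(DE6R) and 0.141% in the double mutant.

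Signs reversed in 30 values of named genes, against 1579 that kept direction and side of the threshold, 122 that no longer passed and 43 that newly passed. For mut-16(DE6R) against WT with library totals, the log2 fold changes were bath-1 0.18, btb-20 0.928, math-48 0.435, math-49 0.285, cand-1 0.758, ned-8 0.29, kel-1 0.154, eor-1 0.665, bath-2 0.371, bath-5 0.541, bath-30 0.893 and bath-3 0.399. With totals without F56H9.8 they were math-48 0.10, cand-1 0.422, bath-2 0.038, bath-5 0.208 and bath-3 0.066. For rde-3 mut-16(DE6R) against WT, library totals and totals without F56H9.8 gave cand-1 0.969 and 1.12, ned-8 0.292 and 0.445, eor-1 0.315 and 0.468, bath-2 0.35 and 0.503, and bath-5 0.824 and 0.978, and upper-quartile factors gave cand-1 0.399. Between the mutants, totals without F56H9.8 gave bath-40 0.358 and kel-20 0.041. Under library totals the median of all genes was 1.09 in mut-16(DE6R) and 1.06 in the double mutant against WT. Under TMM factors these medians were −0.09 and −0.03. Between the mutants the median was −0.02 under TMM factors, −0.11 under library totals and 0.38 under totals without F56H9.8. Which scaling lies nearest to the number of small RNAs per worm was not tested.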
